A study of Rattus norvegicus with 6 samples.

Results

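Transcripts of the insulin-like growth factor (IGF) system were followed through trigeminal ganglia of 6 rat samples: the ligands Igf1 and Igf2, the receptors Igf1r and Igf2r, and the binding proteins Igfbp2 to Igfbp7. These 10 genes were chosen by symbol from the 29884 rows of the count table, and all 10 were present and passed the filter on low counts. The list was drawn up with earlier results of these data known, so the values of its members are given as a description. The trigeminal ganglion is the sensory ganglion of the face. The injury group (3 samples) came from wild type rats with the CCI-ION model of trigeminal neuralgia, in which the infraorbital nerve of the face is chronically constricted. The conduit group (3 samples) came from wild type rats with the same constriction that then received SFM-Gel-light @NGC (written SFM-Gel @NGC-Light in the titles), a light-driven nerve conduit. The labels used here give no strain, sex or age, and ganglia without constriction were not analysed here, so both groups carry the injury. Injury samples carry the day labels 14, 15 and 16 and conduit samples 17, 18 and 19, so day and group cannot be told apart. Batch 1 holds only injury samples (1 and 2) and batch 3 only conduit samples (2 and 3), so batch and group cannot be told apart outside batch 2, which holds injury sample 3 and conduit sample 1. Whether each sample is its own animal is not stated, and the p-values below then measure only the spread between samples.

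IGF-1 and IGF-2 are secreted peptides that act through the IGF-1 receptor, a tyrosine kinase that signals to PI3K, AKT and MAP kinases. The IGF-2 receptor, also the mannose 6-phosphate receptor, has no kinase and carries IGF-2 to lysosomes. Binding proteins hold most IGF outside cells, prolong its life and limit or direct its access to the receptor. In peripheral nerve, IGFs are known as survival and growth factors for sensory neurons and Schwann cells.

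The libraries held 40.2 M to 41.9 M counts, and each member had between 490 and 7904 counts per library, of which they made up 0.0556% to 0.0896% together. All 14 sensory neuron markers were detected in every library, with summed levels of 15067 to 16230 CPM (counts per the library total after TMM scaling) in injury and 13895 to 18894 in conduit. Material of other tissues stood out in some libraries. Injury sample 1 held 6144 CPM of 8 pituitary genes, against 1.43 to 17.0 in the other libraries. Conduit sample 2 held 8774 CPM of 9 skeletal muscle genes. Injury sample 1 also held more of them (577 CPM) than the remaining libraries (75.9 to 135). The 10 bone and cartilage markers summed to 167, 337 and 419 CPM in injury samples 1 to 3 and to 219, 171 and 168 in conduit. Among them the bone matrix gene Ibsp was 8.60, 55.96 and 34.2 CPM in injury and 4.995, 3.57 and 6.83 in conduit, highest in injury samples 2 and 3. In bulk tissue, fewer cells of a type and less RNA per cell cannot be told apart.

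Binding proteins dominated the family in every library. Levels per length, given as the deposited FPKM values (fragments per unit of gene length, scaled to the library total) and averaged over all 6 libraries, were highest for Igfbp7 (145 ± 21.6, SD, n = 6), a secreted matrix-associated member that binds IGFs only weakly. Igfbp4, a soluble inhibitor of IGF action, followed at 62.7 ± 15.3 FPKM, and Igfbp6, which prefers IGF-2, at 62.7 ± 29.7. Igfbp2, a binding protein with affinity for both ligands, stood at 40.3 ± 5.9996, and Igfbp5, which also binds to matrix, at 35.9 ± 18.4. From Igfbp4 to Igfbp5 each gene's range overlapped that of its neighbour in the order, whereas Igfbp7 was above Igfbp4 in 6 of 6 libraries with no overlap of the ranges. The place of Igfbp6 in this order differed by group. It averaged 38.6 ± 14.5 FPKM in injury, below Igfbp4 at 60.4 ± 5.68 and Igfbp5 at 40.8 ± 24.7. In conduit it averaged 86.8 ± 16.1, above Igfbp4 at 65.01 ± 23.3 (SD, n = 3 each). Against Igfbp4 this order held in every library, though narrowly in conduit sample 1 (90.2 against 87.8 FPKM). Against Igfbp5 it did not, since Igfbp6 was the higher in injury sample 1 (44.4 against 26.5 FPKM).

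Receptors and ligands lay well below. Igf2r stood at 8.15 ± 1.07 FPKM, Igf2 at 7.96 ± 3.66 and Igf1 at 7.26 ± 2.70, followed by Igfbp3, the main carrier of IGF in blood, at 5.602 ± 0.838. The ranges of these neighbours overlapped too. Igf1r was lowest at 2.09 ± 0.212 FPKM, below Igfbp3 in 6 of 6 libraries with no overlap, and Igf2r exceeded Igf1r by a ratio of 3.14 to 4.25 in the single libraries.

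**Figure D1:**
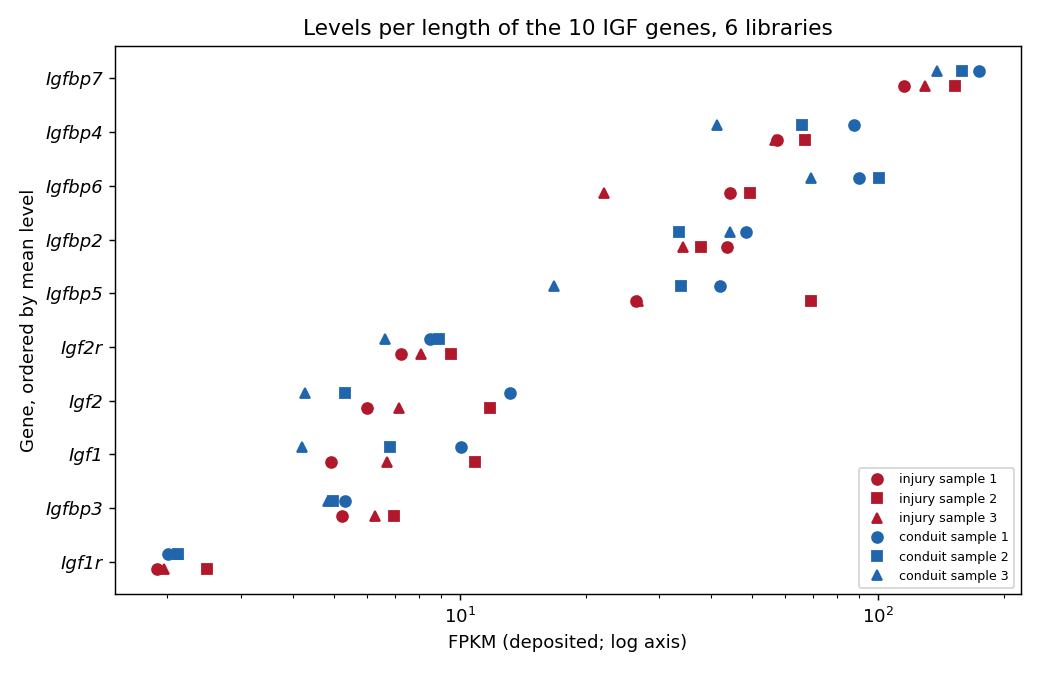
Deposited FPKM (x axis, log scale) of the 10 genes (y axis, ordered by mean level), with 1 point per library in red for injury and blue for conduit. Igfbp7 lies at the top with no overlap with Igfbp4, the genes from Igfbp4 to Igfbp5 form a mid-level group, and Igf1r is lowest.

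Summed over the 6 binding proteins, the level was 317 ± 57.99 FPKM in injury and 387 ± 67.5 in conduit (SD, n = 3 each). The 2 ligands summed to 15.8 ± 6.12 FPKM in injury and 14.6 ± 7.70 in conduit. Binding protein transcripts therefore exceeded ligand transcripts 16.9-fold to 37.3-fold per length in the single libraries, with the highest ratio in conduit sample 3 and the lowest in injury sample 2. The groups overlapped in both sums and in their ratio. Within the binding proteins the share of Igfbp6 was 15.2%, 12.9% and 8.01% of the summed FPKM in injury samples 1 to 3 and 20.1%, 25.3% and 22.0% in conduit samples 1 to 3. This share did not overlap between the groups, whereas the shares of Igfbp7 and Igfbp4 did.

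Conduit was then compared with injury, to see how treatment of the constricted nerve related to levels in the ganglion. None of the 10 IGF genes passed edgeR's test over all 16478 genes tested at an adjusted p of 0.05, where 0.00607% of all genes passed. At an unadjusted p under 0.05, 2 members were higher in conduit (Igfbp6 and Igfbp7) and 0 were lower, where 2.99% of all genes were higher, 2.36% lower and 5.35% either. DESeq2 called 1 member, Igfbp6, where it called 1.23% of the genes it tested, and limma-voom called 0. On TMM-scaled CPM the 2 groups of libraries stood apart without overlap for 3 members, Igfbp6 and Igfbp7 higher and Igfbp3 lower in conduit. Among all genes tested 9.63% did so, 5.41% higher and 4.22% lower. On the deposited FPKM, scaled to the library total and compared in this way after seeing the data, 1 member stood apart, Igfbp6, where 3.33% of all genes did so higher and 7.2% lower. Over the members the log2 fold changes had a median of 0.03, and over all genes tested one of 0.0017.

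Both ligands varied widely between samples of the same group. The highest library exceeded the lowest 2.06-fold in injury and 2.25-fold in conduit for Igf1, and 1.83-fold and 2.90-fold for Igf2. Igf1 was 46.9, 96.8 and 61.3 CPM in injury samples 1 to 3 and 92.9, 65.2 and 41.2 CPM in conduit samples 1 to 3. Igf2 was 43.6, 79.8 and 49.8 CPM in injury and 92.4, 38.7 and 31.9 in conduit. For both ligands injury sample 2 and conduit sample 1 were the highest libraries and conduit sample 3 the lowest, and the groups overlapped widely. The group means were 68.3 ± 25.7 and 66.5 ± 25.9 CPM for Igf1 (log2 fold change -0.04, 95% interval -0.92 to 0.83; edgeR adjusted p = 0.9998). They were 57.7 ± 19.3 and 54.4 ± 33.1 CPM for Igf2 (log2 fold change -0.09, 95% interval -1.17 to 0.99). The interval for Igf2 runs from 0.445-fold to 1.99-fold, so a change of either sign within it was not detectable with these samples. Within batch 2, 1 library against 1, both ligands were higher in the conduit library, by 0.60 for Igf1 and 0.89 for Igf2 on the log2 scale. Without injury sample 2 the pooled log2 fold changes turned to 0.30 for Igf1 and 0.22 for Igf2, without conduit sample 3 to 0.21 and 0.19, and without conduit sample 2 that of Igf2 turned to 0.11.

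Both receptors varied little between libraries. Igf1r was 26.6, 32.8 and 26.6 CPM in injury and 27.4, 30.04 and 30.9 in conduit. Igf2r was 64.8, 79.5 and 69.7 CPM in injury and 73.9, 80.4 and 61.5 in conduit. The highest library exceeded the lowest 1.23-fold for Igf1r and 1.31-fold for Igf2r, and the groups overlapped for both. Log2 fold changes were 0.04 for Igf1r (95% interval -0.24 to 0.32) and 0.01 for Igf2r (95% interval -0.29 to 0.31). The sign of these small estimates was not stable. That of Igf1r turned on log2 FPKM and without injury sample 1 or 3. That of Igf2r turned in the same settings, with upper-quartile scaling and without conduit sample 1 or 2. Insr, the insulin receptor, which can form hybrids with the IGF-1 receptor, was 22.2 ± 2.46 CPM in injury and 23.6 ± 3.22 in conduit.

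Igfbp6 had the largest difference of the family. It was 39.2, 40.8 and 18.8 CPM in injury samples 1 to 3 and 77.3, 89.8 and 63.3 CPM in conduit samples 1 to 3. Every conduit library lay above every injury library, and injury sample 3 was the lowest of all. The means were 32.95 ± 12.3 and 76.8 ± 13.3 CPM (log2 fold change 1.22, SE 0.30, 95% interval 0.51 to 1.93; edgeR adjusted p = 0.614), a 2.33-fold difference that did not pass over all genes. DESeq2 called it on the same counts (adjusted p = 0.00496). The log2 fold change ranged from 0.94 (without injury sample 3) to 1.40 (without injury sample 2) with 1 library left out, and it was 2.04 within batch 2. Without injury sample 1 and conduit sample 2 together, the libraries with pituitary and muscle transcripts, it was 1.25.

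Summed marker levels of some other cells also differed between the groups. The summed level of 8 Schwann cell markers was 30617 to 38032 CPM in injury and 43869 to 51239 in conduit, with no overlap, and 7 of 8 were higher in conduit. The 13 fibroblast and meningeal markers summed to 2904 to 4864 CPM in injury and 3247 to 5873 in conduit, with overlap, and 9 of 13 were higher. The 8 red blood cell markers lay the other way, at 4455 to 5316 CPM in injury and 511 to 1273 in conduit. None of these lists had a marker at 0, and their part in the Igfbp6 difference was not tested.

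Igfbp7 was 129.7, 160.5 and 140.2 CPM in injury and 190.7, 180.1 and 161.0 in conduit. Conduit sample 3 lay only just above injury sample 2 on this scale. On the deposited FPKM the groups overlapped, with 153 in injury sample 2 and 138 in conduit sample 3. The means were 143 ± 15.7 and 177 ± 15.1 CPM (log2 fold change 0.31, SE 0.11; edgeR adjusted p = 0.879). Igfbp3 differed in the other direction by less, at 12.9, 16.0 and 14.8 CPM in injury and 12.7, 12.3 and 12.3 in conduit. Its log2 fold change was -0.23 (SE 0.12; edgeR adjusted p = 0.9998). Here too the groups overlapped on the deposited FPKM, with 5.23 in injury sample 1 and 5.32 in conduit sample 1. The summed level of 10 proliferation markers, 21.0 to 113 CPM in injury and 18.0 to 27.3 in conduit, was highest in injury samples 2 and 3, as was Igfbp3; its part in the Igfbp3 values was not tested.

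The other 3 binding proteins overlapped between groups. Igfbp2 was 57.4, 46.5 and 43.4 CPM in injury and 61.7, 44.5 and 60.4 in conduit (log2 fold change 0.18, 95% interval -0.21 to 0.56). Igfbp4 was 126, 138 and 121 CPM in injury and 187, 146 and 94.1 in conduit (log2 fold change 0.15, 95% interval -0.40 to 0.70). Its 3 injury libraries lay close together while its conduit libraries spread 1.99-fold. Igfbp5 was 43.8, 107 and 42.5 CPM in injury and 67.4, 56.4 and 28.8 in conduit (log2 fold change -0.34, 95% interval -1.47 to 0.78). Injury sample 2 alone set the direction for Igfbp5: without it the log2 fold change was 0.24, and within batch 2 it was 0.67. Bone and cartilage markers summed to 337 CPM in injury sample 2 and 419 CPM in injury sample 3. Single markers went both ways between these samples. Ibsp was 55.96 and 34.2 CPM and Alpl 55.0 and 36.9, whereas Mmp13 was 19.6 and 50.2 and Ctsk 39.0 and 115.6. Their part in the Igfbp5 values was not tested. Igfbp4 turned to -0.09 without conduit sample 1.

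**Figure D2:**
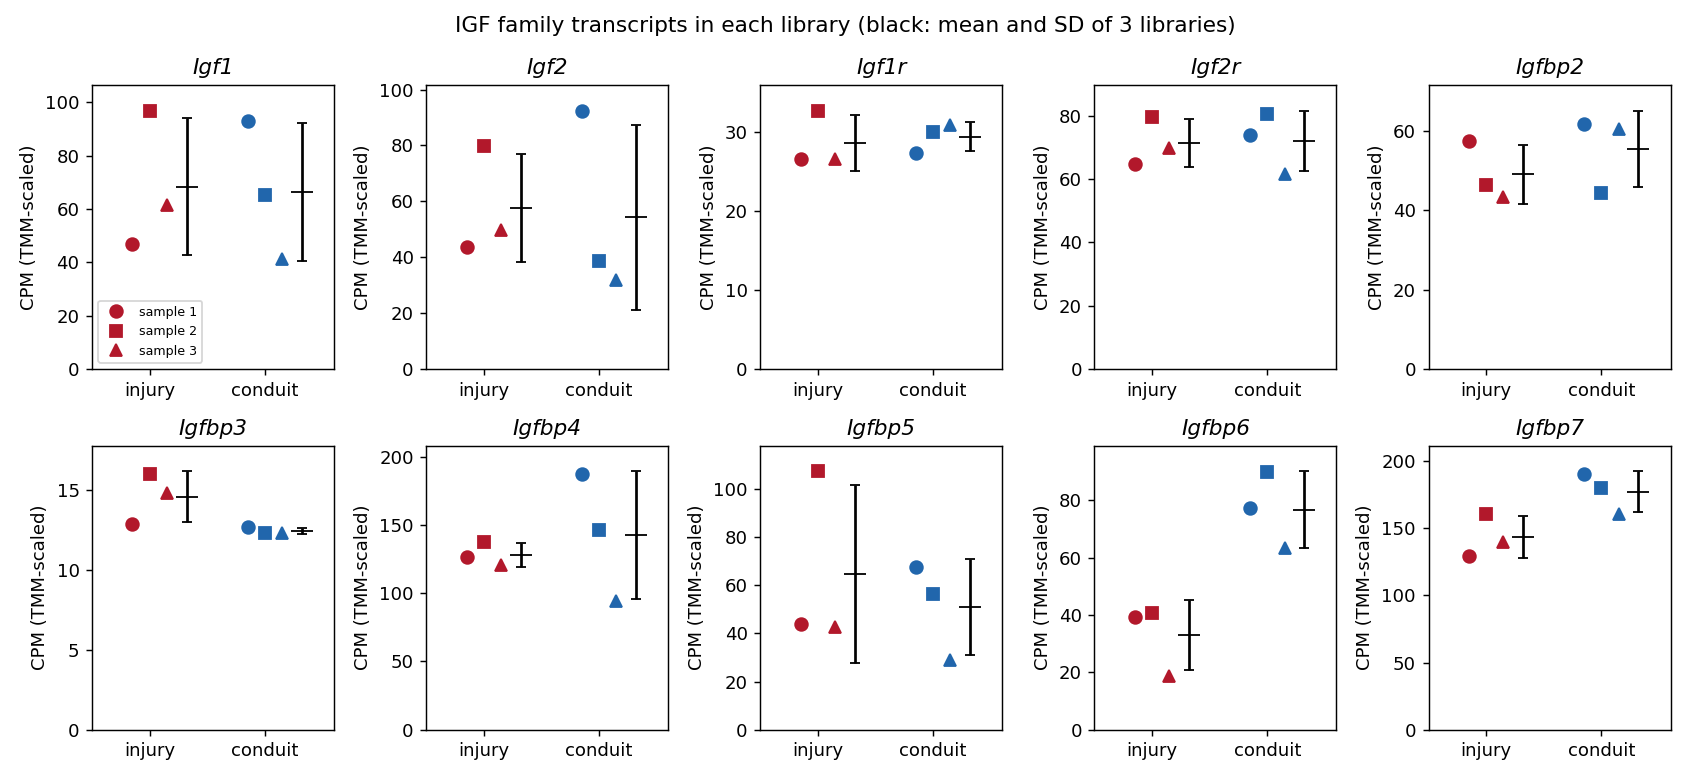
TMM-scaled CPM (y axis, from 0) of each of the 10 genes in the 3 injury (red) and 3 conduit (blue) libraries, with marker shape for the sample number and black bars for mean and SD. Igfbp6 separates the groups at 18.8 to 40.8 against 63.3 to 89.8 CPM, while Igf1, Igf2 and Igfbp5 spread widely within each group.

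**Figure D3:**
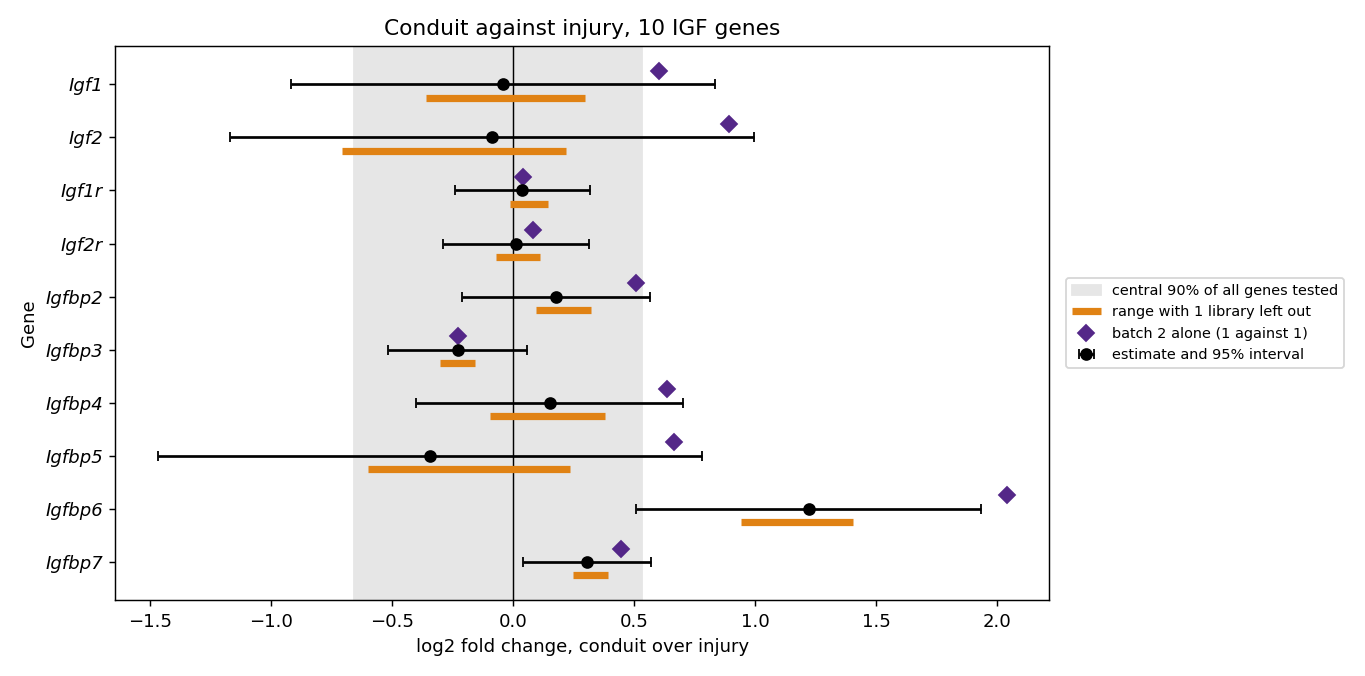
Log2 fold change of conduit over injury (x axis) for the 10 genes (y axis): black points with 95% intervals from edgeR, orange bars for the range with 1 library left out, purple diamonds for batch 2 alone, and a grey band for the central 90% of all genes tested (-0.66 to 0.53). Igfbp6 at 1.22 is the only member whose estimate lies outside the band, and the intervals of Igf1, Igf2 and Igfbp5 are the widest.

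Spread over the 6 libraries differed between members. The highest library exceeded the lowest 4.78-fold for Igfbp6, 3.72-fold for Igfbp5, 2.90-fold for Igf2, 2.35-fold for Igf1 and 1.99-fold for Igfbp4. It exceeded it 1.47-fold for Igfbp7, 1.42-fold for Igfbp2, 1.31-fold for Igf2r, 1.30-fold for Igfbp3 and 1.23-fold for Igf1r. The median was 1.33-fold over the 10749 genes whose log2 CPM averaged 3 or more. The spread of Igf1 was wider than that of 95.3% of those genes, and that of Igf1r wider than 29.1%. Igfbp3 and Igf2r lay near the median, with spreads wider than 45.2% and 46.4% of those genes. The spread of Igfbp6 includes the difference between the groups. Within groups its highest library exceeded its lowest 2.17-fold in injury and 1.42-fold in conduit, against 2.52-fold and 2.34-fold for Igfbp5.

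Stretches of 250 bases upstream of the RefSeq start are shown for 2 members of wide spread, Igfbp6 and Igfbp5. They are set beside 2 of spread near the median, Igfbp3 and Igf2r, for the difference in base content between the pairs. Sequences come from RefSeq on build GRCr8, not the build the submitters name, run 5′ to 3′ along the gene, and carry each CG dinucleotide in capitals.
Igfbp6 (chr7:135154669-135154918, plus strand): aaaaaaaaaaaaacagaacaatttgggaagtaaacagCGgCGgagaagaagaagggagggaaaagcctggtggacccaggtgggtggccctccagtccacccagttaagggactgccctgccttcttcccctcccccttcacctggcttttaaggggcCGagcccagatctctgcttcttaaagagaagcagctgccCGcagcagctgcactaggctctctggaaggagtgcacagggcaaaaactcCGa
Igfbp5 (chr9:81914188-81914437, minus strand): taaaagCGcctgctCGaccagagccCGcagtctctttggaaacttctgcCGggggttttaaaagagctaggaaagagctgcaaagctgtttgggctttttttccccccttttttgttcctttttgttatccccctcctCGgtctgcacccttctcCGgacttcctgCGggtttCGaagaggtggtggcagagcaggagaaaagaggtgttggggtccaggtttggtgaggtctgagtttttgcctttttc
Igfbp3 (chr14:86277945-86278194, minus strand): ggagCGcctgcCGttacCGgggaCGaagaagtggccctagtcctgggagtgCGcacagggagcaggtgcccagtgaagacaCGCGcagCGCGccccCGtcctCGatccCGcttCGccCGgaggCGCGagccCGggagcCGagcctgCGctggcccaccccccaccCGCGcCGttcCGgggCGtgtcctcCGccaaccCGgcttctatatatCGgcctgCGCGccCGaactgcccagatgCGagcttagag
Igf2r (chr1:50526628-50526877, plus strand): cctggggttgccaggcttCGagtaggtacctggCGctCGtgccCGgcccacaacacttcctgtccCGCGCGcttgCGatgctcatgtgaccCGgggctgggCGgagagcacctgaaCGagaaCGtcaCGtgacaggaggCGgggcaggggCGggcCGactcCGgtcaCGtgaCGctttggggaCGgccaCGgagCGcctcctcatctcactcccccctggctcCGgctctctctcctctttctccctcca
The Igfbp6 stretch holds 5 CG dinucleotides and that of Igfbp5 holds 8, against 31 for Igfbp3 and 23 for Igf2r, with a median of 5.0 over 33465 promoters of the same table. All 10 members matched the table, Igf2 with 2 starts. Among the other members of wide spread, Igf1 had 3, the starts of Igf2 had 7 and 15, and Igfbp4, with a 1.99-fold spread, had 21. Igf1r had 45, Igfbp7 26 and Igfbp2 11. The GC box letters GGGCGG, read on both strands, were in the stretches of Igf1r, Igf2r, Igfbp2, Igfbp7 and 1 of the 2 starts of Igf2, and in 30.5% of all promoters. TATAAA, read on the sense strand, was in that of Igfbp4 and in 8.1% of all promoters. These counts are a description of sequence over few genes, and the pairs shown were chosen after the spread was seen.

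Members were compared in pairs from library to library, as a description. The share of all gene pairs that reach such values was not computed. Of the 45 member pairs, 5 had r above 0.8, none of which passed adjustment. They were Igf1, Igf2 and Igfbp5 with each other, and Igf2r, of spread near the median, with Igf1 and Igfbp5. Over the 6 libraries, Pearson's r of log2 CPM was 0.92 between Igf1 and Igfbp5 (exact permutation p = 0.00417; Spearman's rho 0.94, exact permutation p = 0.0167; r = 0.87 without the 2 libraries farthest from the median of Igf1). Between Igf1 and Igf2 it was 0.91 (exact permutation p = 0.0278; rho 0.77, exact permutation p = 0.103; r = 0.81 without the 2 farthest libraries). Igfbp6, with the widest spread, was in none of these 5 pairs. None of the 45 pairs passed after Benjamini-Hochberg adjustment (adjusted exact permutation p = 0.188 and 0.383 for these 2 pairs by Pearson's r, and 0.578 for both by rho). All genes of a library share its tissue composition, and each batch holds 2 libraries, too few for a value within batches. Igfbp2 and Igfbp5, adjacent genes on chromosome 9 of GRCr8, had r = -0.32 (exact permutation p = 0.539; rho 0.09, exact permutation p = 0.919; r = -0.79 without the 2 farthest libraries; adjusted p = 0.808 by r and 0.94 by rho).

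Marker levels of stromal and immune cells differed between the same libraries. Macrophages, a known source of IGF-1 in injured tissue, had 10 markers summing to 213, 548 and 286 CPM in injury and 451, 233 and 232 in conduit, so injury sample 2 and conduit sample 1 were highest, as for both ligands. Lyz2, a lysozyme gene, made up 406 of the 548 CPM in injury sample 2, where C1qa, a complement gene, was at its lowest (17.5 CPM). Without Lyz2 the other 9 markers summed to 97.4, 143 and 119 CPM in injury and 245, 116 and 109 in conduit, with the same 2 libraries highest. Single markers differed: 7 of 10 were highest in conduit sample 1 and 3 in injury sample 2, and for 4 of 10 these were the 2 highest libraries. The fibroblast and meningeal sum was 2904, 4864 and 3905 CPM in injury and 5873, 4435 and 3247 in conduit, with the same 2 libraries highest. The sum of 8 pericyte and smooth muscle markers was 200.03, 406 and 284 CPM in injury and 364, 400.1 and 192 in conduit. No marker of these lists was at 0 over the libraries, and their part in the ligand and Igfbp5 values was not tested.

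**Figure D4:**
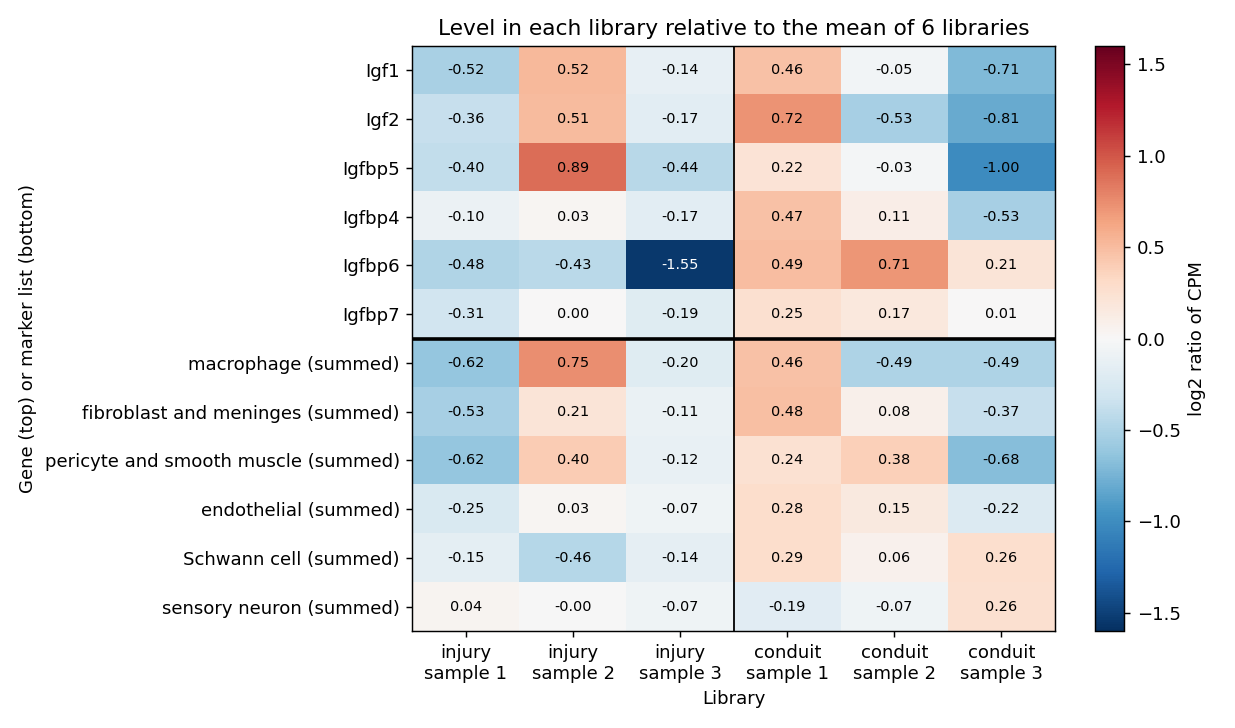
Log2 ratio of CPM to the mean of the 6 libraries (colour and printed value) for 6 IGF genes (top) and 6 summed marker lists (bottom) in each library (x axis). Igf1, Igf2 and the macrophage and fibroblast sums are all above their mean in injury sample 2 and conduit sample 1; Igfbp6 is above its mean only in the 3 conduit libraries.

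The genes most like each member in pattern, by Pearson's r of log2 CPM over the 6 libraries among 10486 genes, are given as a description. For Igf1 they were Fat4 (r = 0.996), Sf1 (0.996) and Lrp4 (0.996), and 117 genes had r above 0.95. For Igf2 they were Lyn, Fam204a and Cyth4 (0.994, 0.992 and 0.992). For Igfbp6 they were Tns1, Mfap5 and Myl12a (0.988, 0.981 and 0.981), with 12 genes above 0.95. For Igfbp5 they were Ccn2, Dync2i1 and Prom1 (0.994, 0.992 and 0.992), and for Igfbp7 Nr1h3, Snrpa and Arid5b (0.993, 0.991 and 0.986). For Igfbp3 they were Gnl3, Mcm4 and E2f2 (0.992, 0.992 and 0.991), the latter 2 known for DNA replication and its control. Those of Igfbp4 were Bicc1, Wasf2 and Ift122 (0.989, 0.989 and 0.985), and those of Igfbp2 Nmral1, Man1c1 and Galnt2 (0.993, 0.977 and 0.975). Igf2r was followed by St3gal1, Fzd4 and Myl9 (0.998, 0.994 and 0.994) and Igf1r by Clint1, Atp8a2 and Spin1 (0.988, 0.970 and 0.964). Over only 6 libraries such values are reached by many genes.

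Other genes of the pathway were read from 5 lists, and edgeR called 0 of their 51 tested genes over all genes. At an unadjusted p under 0.05, 3 of the 51 were higher and 1 was lower, where 2.99% and 2.36% of all genes were. The lower gene was Gh1, at 4869 CPM in injury sample 1, the library with pituitary transcripts, and 0.452 to 15.3 CPM elsewhere. DESeq2 called 2 of the 51, where it called 1.23% of the genes it tested. Among carriers and proteases of IGF, 5 of 8 tested genes had higher and 3 lower estimates (median log2 fold change 0.24). Pappa2, a protease of Igfbp3 and Igfbp5, was 4.28, 4.92 and 4.43 CPM in injury and 8.20, 9.22 and 3.72 in conduit, so conduit sample 3 lay below every injury library. Pappa, the protease of Igfbp4, averaged 4.16 ± 1.66 CPM in injury against 3.42 ± 0.675 in conduit, and Igfbpl1, an IGFBP-like gene, 1.603 ± 0.424 and 2.16 ± 0.453. Igfbp1, best known as a liver binding protein, had 0 to 6 counts per library, at or under the floor of 3 counts in 5 of 6 libraries.

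Downstream of the receptors, the 9 tested receptors and adaptors had fold changes with a log2 median of 0.08, and the 19 genes of PI3K, AKT, MTOR and FOXO one of 0.0034. In the first list 1 gene and in the second 2 genes had no overlap between the groups, all higher in conduit, where 5.41% of all genes tested were. These were Grb14, Foxo4 and Akt2, and on the deposited FPKM the groups overlapped for Akt2. Foxo4, a transcription factor held out of the nucleus by AKT, was 29.5, 35.3 and 36.7 CPM in injury and 48.2, 56.9 and 46.98 in conduit, a log2 difference of 0.58 (SE 0.12; edgeR adjusted p = 0.514, DESeq2 adjusted p = 0.00828). Grb14, an adaptor that inhibits insulin receptor signalling, averaged 39.9 ± 1.42 CPM in injury and 49.6 ± 1.37 in conduit (a log2 difference of 0.31; edgeR adjusted p = 0.614, DESeq2 adjusted p = 0.047). Akt2, a kinase of insulin signalling, was 54.4 ± 3.38 and 65.04 ± 7.95 CPM, and Gab1, a docking protein, 78.4 ± 8.69 and 91.8 ± 13.1.

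In the growth hormone axis, which drives IGF-1 production in liver, 3 of 7 tested genes had higher and 4 lower estimates (median -0.03). Ghr, the growth hormone receptor, was 44.03, 45.1 and 47.6 CPM in injury and 62.7, 77.6 and 53.6 in conduit, with no overlap (log2 fold change 0.50, SE 0.14; edgeR adjusted p = 0.678). It was 0.40 within batch 2 and 0.36 without conduit sample 2. Socs2 stood apart the other way, at 19.9, 21.2 and 24.2 CPM in injury and 18.5, 19.2 and 18.6 in conduit. Its log2 fold change was -0.21 (edgeR adjusted p = 0.9998). So 1 gene of this list was higher and 1 lower in conduit without overlap, where 5.41% and 4.22% of all genes tested were. Gh1, growth hormone itself, was 4869 CPM in injury sample 1 and 0.452 to 15.3 CPM in the other libraries. Dlk1, an imprinted gene, was 191 CPM in that library and 1.105 to 4.02 elsewhere. Injury sample 1, which held this pituitary signal, stood at the lowest injury values of Igf1 and Igf2.

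Imprinted growth genes and Igf2 mRNA binders had a median of -0.06, with 2 of 8 tested genes higher and 6 lower. H19, the noncoding RNA expressed next to Igf2 from the other parental allele, was 57.9, 65.8 and 26.4 CPM in injury and 76.9, 334 and 14.5 in conduit. The highest value was in conduit sample 2, the library with the highest skeletal muscle sum, where Igf2 was at 38.7 CPM. The part of muscle in it was not tested, and without that library the H19 log2 fold change was -0.13. Peg3, an imprinted zinc finger gene, averaged 368 ± 9.51 CPM in injury and 326 ± 24.9 in conduit. Igf2bp2, which binds Igf2 mRNA, was 4.83 ± 0.307 and 5.70 ± 1.02 CPM, and Igf2bp1 had 0 counts in all 6 libraries, which allows up to 0.071 to 0.0753 CPM (3 counts, counting error only).

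**Figure D5:**
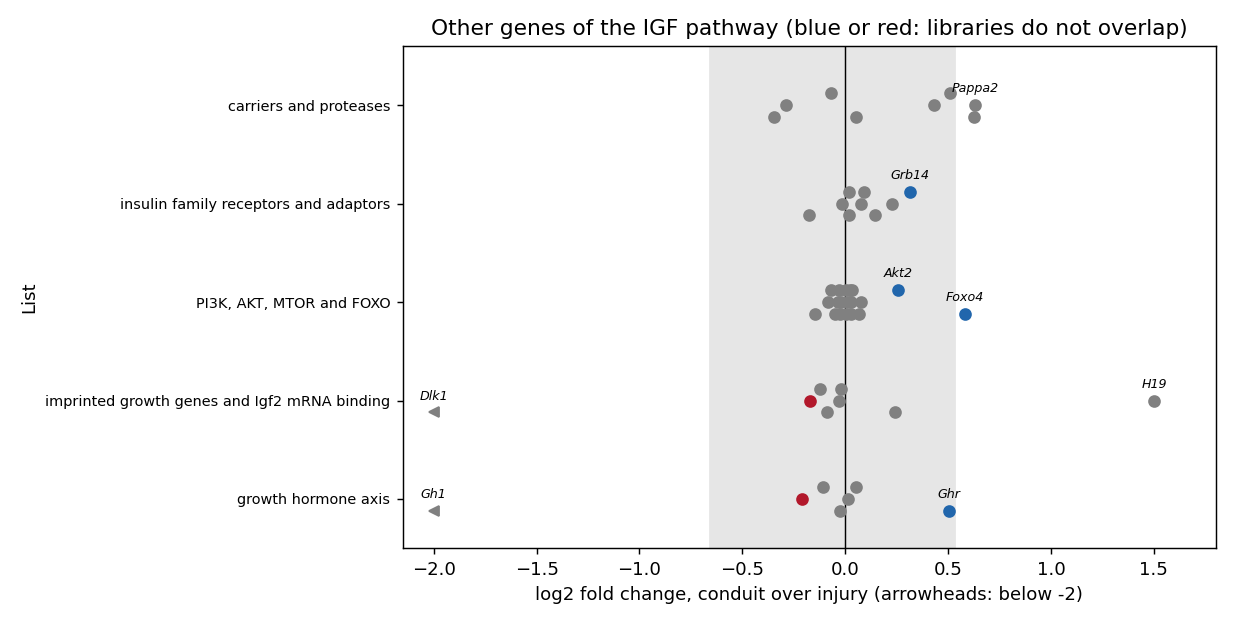
Log2 fold change of conduit over injury (x axis; arrowheads at the left edge lie below -2) for the tested genes of 5 pathway lists (y axis), coloured blue or red where the libraries of the groups do not overlap (higher or lower in conduit), with the grey band as for all genes tested. Most points lie within the band; Ghr, Foxo4 and Grb14 are among the blue points, and H19, Dlk1 and Gh1 are values set by single libraries.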

How the data were processed

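RNA from trigeminal ganglia was sequenced on a NovaSeq instrument after TRIzol extraction and mRNA purification, per the labels' protocols. Per the submitters' processing notes, HISAT2, HTSeq, fastp, DESeq2 and SAMtools were used with build mRatBN7.2. Not given in the sources used here: versions, annotation, strand setting; reads of overlapping antisense genes can then not be told apart. Counts as deposited are whole reads per gene symbol. The deposited FPKM values are the authors' counts per kilobase and library total: 14394 of 14394 genes checked gave the same length in each library (within 1e-4), so they are no independent measurement and served for levels between genes.

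Counts were fitted with edgeR 4.0.16 in R 4.3.3 (filterByExpr with a minimum of 10, TMM, robust quasi-likelihood F test, no covariate, Benjamini-Hochberg over 16478 genes, threshold 0.05); the SE is the log2 fold change divided by the root of F. DESeq2 1.42.0 and limma 3.58.1 were alternatives. Log2 CPM used a prior count of 2. Scripts were tested on simulated data. Groups came from the titles. Replicate numbers were not used to pair the samples. An exact permutation test of 3 against 3 can give no p under 0.1. The text names all 10 members and, per pathway list, the 2 genes with the smallest p plus Insr, Ghr, Pappa, H19, Igf2bp2 and Igfbp1. Socs2 and Igf2bp1 were named outside this rule. Members and lists were chosen with earlier results of these data known.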

Additional observations from a re-analysis of the deposited data

How the results depend on the processing

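EdgeR called 0 of the 10 IGF genes under each alternative in which it was run, and DESeq2 called 1 of them, Igfbp6. Igfbp6, Igfbp7, Igfbp2 and Igfbp3 kept their direction in 17 of 17 tested alternatives. Over those 17 the adjusted p of Igfbp6 ranged from 0.00496 to 0.9999 and its log2 fold change from 0.94 to 2.04. The count of all genes called, 1 with all libraries, was 6 without the low-count filter, 210 with DESeq2 (112 of them higher in conduit), 9 and 3 with limma on log2 FPKM plus 1 and plus 0.1, and 0 with batch in the fit. With each library left out in turn it ranged from 0 (conduit sample 3 left out) to 38 (injury sample 1 left out); leaving out injury sample 3 gave 35 and conduit sample 1 gave 6. It was 13 when both injury sample 1 and conduit sample 2 were left out, a setting chosen after seeing the data. Causes of these shifts were not tested.

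With the replicate number as a block the count was 0, and no IGF gene changed its call. Correlations of deviations from the group means were -0.42, 0.06 and -0.07 for same-numbered samples and ran from -0.35 to 0.33 for the others. With 3 samples per group these values cannot tell whether same-numbered samples share more than a number.

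Sign changes fell on estimates near 0 or on values set by single libraries. With each library left out in turn, log2 fold changes ranged from -0.36 to 0.30 for Igf1, -0.71 to 0.22 for Igf2, -0.011 to 0.15 for Igf1r, -0.069 to 0.11 for Igf2r, -0.095 to 0.38 for Igfbp4, -0.60 to 0.24 for Igfbp5, -0.013 to 0.18 for Insr, -0.46 to 0.091 for Pappa, -0.13 to 2.04 for H19 and -5.05 to 0.40 for Dlk1. With batch in the fit, Igf1, Igf2, Igfbp5 and Dlk1 turned to 0.60, 0.89, 0.67 and 1.27. Since batches 1 and 3 each hold 1 group only, that fit takes its contrast from the 2 libraries of batch 2 and gave the values of batch 2 alone. On the deposited FPKM 1 IGF gene had groups without overlap, against 3 on TMM-scaled CPM. Without both injury sample 1 and conduit sample 2, Igf1r, Igf2r, Dlk1 and H19 turned to -0.016, -0.13, 0.10 and -0.0051, and Igfbp5 was -0.63. On log2 FPKM plus 1, Igf1r and Igf2r turned to -0.0098 and -0.041, on log2 FPKM plus 0.1 to -0.011 and -0.046, and with upper-quartile scaling Igf2r to -0.015.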
